A study of Homo sapiens with 15 samples.

Results

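Ov4Cis is a cisplatin-resistant derivative of OVCAR4, an established cell line of high-grade serous ovarian cancer, and it was compared here with its platinum-sensitive parent, labelled Ovcar4Parental. The comparison took every sample labelled with either line, 6 of the 15 in the series, and all 16604 genes of the expression table. Ov4Cis was obtained by growing the parental cells in rising amounts of cisplatin until the IC50, the concentration that reduces viability by a set fraction, had risen between 2 and 10 times. The labels do not say whether drug was present when RNA was taken. The other 9 samples are 3 carboplatin-resistant lines, Ov4Carbo and the lines Ov4Carbo4 and Ov4Carbo7 grown from single cells of it. All 5 lines were kept in DMEM with serum and have 3 biological replicates each. Ov4Cis is 1 selected population from 1 parental line, so its replicates show how reproducible that population is, not how often cisplatin selection gives the same result. The submitters described no genetic modification of either line.

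Cisplatin forms platinum adducts and crosslinks on DNA that block replication. Cells can survive it by taking up less platinum, binding it to thiols such as glutathione and metallothioneins, repairing or bypassing the lesions, or failing to undergo apoptosis. Carcinoma cells can also lose epithelial features, a program in which transcription factors of the SNAI, ZEB and TWIST families repress junction and keratin genes, and which factors such as GRHL2 and OVOL1 oppose. The gene lists described here follow these processes, with lineage, immune and signalling genes added.

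Levels are log2 RPKM, reads scaled to gene length and to the sequenced total and then normalized by the authors. Sample minima ranged from -8.18 to -7.68, and between 13643 and 13712 genes per sample were above 0. Sequencing depth is unknown, and precision is known only from the replicates. Values near the bottom of the scale depend on the offset chosen by the authors, so fold changes of genes that were almost absent from either line are uncertain in size. PAX8, the transcription factor that marks Müllerian tumours, was at log2 RPKM 6.01 ± 0.036 in the parental line and 5.97 ± 0.10 in Ov4Cis (mean ± SD, n = 3), so both lines carried this marker. WT1, another usual marker of serous carcinoma, was near the bottom of the scale in the parental line, at log2 RPKM -6.37, -5.11 and -3.74. Of the leukocyte markers, 12 of 15 were not analysed here because they were not in the table. No pair of samples held identical values.

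Ov4Cis differed from the parental line in 2635 of 16604 genes, 15.9% of those tested. A gene was called when the adjusted p of the limma test was under 0.05 and the log2 fold change was at least 1 in either direction. Of these genes 1405 (8.46%) were higher and 1230 (7.41%) were lower in Ov4Cis. At the same adjusted p with no limit on the fold, 6012 genes (36.2%) passed. The 3 values of each line did not overlap with those of the other in 53.4% of all genes and in 2594 of the called genes. The root mean square difference between samples over all genes was 1.27 to 1.36 log2 units between the lines, against 0.30 to 0.50 within Ov4Cis and 0.40 to 0.56 within the parental line. Most of the transcriptome moved little: 63.9% of genes differed by less than 0.5 on the log2 scale, and the median log2 fold change was 0.039. Among the 12752 genes whose higher line mean reached log2 RPKM 1, 11.5% were called, 674 higher and 787 lower. At the extremes, 22 genes went from below log2 RPKM -3 in the parental line to above 2 in Ov4Cis, and 42 went the other way. The split depends on how low values are handled: higher calls were 53.3% of the total here, 45.1% on the log2(RPKM + 1) scale and 44.5% among genes with a mean log2 RPKM of at least 1.

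**Figure D1:**
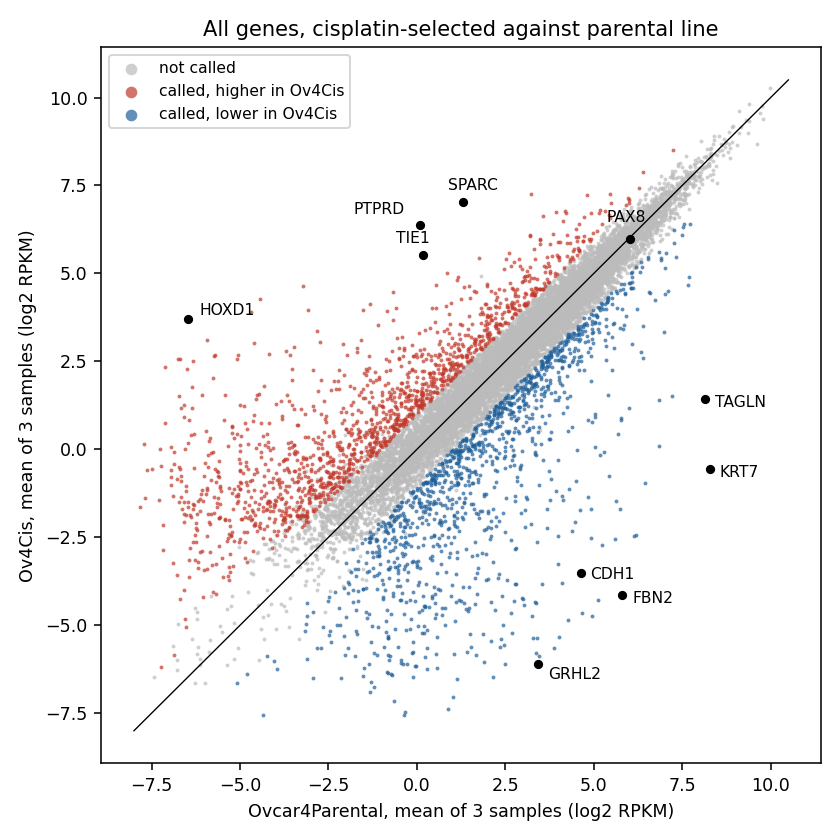
Mean log2 RPKM of the 3 parental samples (horizontal) and the 3 Ov4Cis samples (vertical) for each of 16604 genes, with 1405 genes called higher in red and 1230 called lower in blue. PAX8 lies on the line of equality, KRT7, CDH1, GRHL2, FBN2 and TAGLN lie far under it, and HOXD1, PTPRD, TIE1 and SPARC far above it.

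Epithelial genes fell in a larger share than any other of the lists examined. Of 60 measured members of 3 epithelial lists, 50 were called lower (83.3%) and 0 higher, where 7.41% of all genes were called lower. By limma 0 members were called higher, 2 were higher at an unadjusted p under 0.05, and 1 was higher at an adjusted p under 0.05, DSC2, a desmosomal cadherin named after its value was seen (log2 fold change 0.80). Without Ov4Cis replicate 1, 1 desmosomal member was called higher. The median log2 fold change of the 60 was -3.94, beside 0.039 over all genes. On the log2(RPKM + 1) scale, where genes at the bottom of the scale weigh less, these medians were -1.99 and 0.028. Their summed RPKM was between 2204 and 2345 in the parental samples and between 487.5 and 519.1 in the Ov4Cis samples. In RNA from a whole culture, fewer cells that express a gene and less RNA per cell cannot be told apart. Among the 10 members not called were TFAP2A, TFAP2C, F11R, TJP1, DSC2, DSC3, DSG2, PKP2 and PERP, so TJP1, a scaffold protein of tight junctions, and several desmosomal genes did not pass.

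The transcriptional and splicing regulators of the epithelial state made up the first list, and 11 of 13 measured members were called lower. GRHL2, a grainyhead-like factor that activates junction genes, was at log2 RPKM 3.41, 3.42 and 3.45 in the parental samples and -6.37, -6.52 and -5.38 in the Ov4Cis samples. ESRP1, which directs epithelial splicing, was at log2 RPKM 5.48, 5.05 and 4.81 in the parental samples and -3.90, -3.74 and -5.21 in Ov4Cis. In both cases every Ov4Cis sample lay far below every parental sample, with log2 fold changes of -9.52 ± 0.72 (SE; adjusted p = 6.30e-07) for GRHL2 and -9.40 ± 0.48 (adjusted p = 2.44e-08) for ESRP1. The related splicing factor ESRP2 retained a low level, with log2 RPKM 3.45 ± 0.15 in the parental line and -1.01 ± 0.74 in Ov4Cis. OVOL1 and OVOL2, zinc finger repressors of mesenchymal genes, had log2 fold changes of -7.17 and -4.23. The log2 fold change was -3.22 for FOXA1, a pioneer factor. Among the ETS factors of epithelia, ELF3 fell from log2 RPKM 4.58 ± 0.092 to 2.25 ± 0.41, and EHF from 0.041 ± 0.31 to -3.85 ± 0.95. EHF was low in both lines, and on the log2(RPKM + 1) scale its fold change was -0.92, under the limit for a call. TFAP2A did not differ by more than the replicate spread (log2 fold change -0.059 ± 0.11, adjusted p = 0.711). With genes of mean log2 RPKM under 1 removed, 4 members of this list were still called lower.

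The proximal promoters of epithelial members are shown because SNAI and ZEB proteins act on this class of gene through a known hexamer. RefSeq promoters (GRCh38.p14) were matched for 29 of the 60 members, each as the 250 bases before the annotated start. The set printed here ranges from the most copies to none of that hexamer, the E-box CAGGTG. The genes are CRB3 and RAB25, which act in apical polarity and vesicle recycling, AP1M2, an epithelial sorting adaptor, DSP, which encodes desmoplakin, and CLDN4, a tight junction claudin. All 5 fell in Ov4Cis. Capitals mark the hexamer on either strand, so CACCTG is its reverse complement.
CRB3, chr19:6464021-6464270, plus strand: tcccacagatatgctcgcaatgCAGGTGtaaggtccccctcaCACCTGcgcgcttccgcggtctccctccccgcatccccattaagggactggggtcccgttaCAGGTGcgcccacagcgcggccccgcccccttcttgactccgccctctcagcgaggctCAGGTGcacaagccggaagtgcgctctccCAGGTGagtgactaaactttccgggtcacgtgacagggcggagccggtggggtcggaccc
AP1M2, chr19:10587313-10587562, minus strand: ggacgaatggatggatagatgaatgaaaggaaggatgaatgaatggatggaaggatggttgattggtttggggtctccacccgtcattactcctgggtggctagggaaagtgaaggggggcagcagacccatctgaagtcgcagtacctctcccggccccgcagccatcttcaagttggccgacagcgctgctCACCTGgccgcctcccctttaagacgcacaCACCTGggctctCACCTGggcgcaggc
DSP, chr6:7541421-7541670, plus strand: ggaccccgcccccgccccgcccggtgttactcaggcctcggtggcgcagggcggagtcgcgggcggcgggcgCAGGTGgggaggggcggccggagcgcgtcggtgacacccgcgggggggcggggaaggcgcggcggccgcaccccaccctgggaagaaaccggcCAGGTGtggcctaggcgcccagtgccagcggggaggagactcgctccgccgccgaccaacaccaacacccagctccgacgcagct
RAB25, chr1:156060910-156061159, plus strand: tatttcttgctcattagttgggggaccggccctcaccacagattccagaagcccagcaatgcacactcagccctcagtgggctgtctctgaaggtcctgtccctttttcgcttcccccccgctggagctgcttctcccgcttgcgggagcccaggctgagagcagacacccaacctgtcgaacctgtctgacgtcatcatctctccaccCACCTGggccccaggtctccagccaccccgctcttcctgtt
CLDN4, chr7:73830746-73830995, plus strand: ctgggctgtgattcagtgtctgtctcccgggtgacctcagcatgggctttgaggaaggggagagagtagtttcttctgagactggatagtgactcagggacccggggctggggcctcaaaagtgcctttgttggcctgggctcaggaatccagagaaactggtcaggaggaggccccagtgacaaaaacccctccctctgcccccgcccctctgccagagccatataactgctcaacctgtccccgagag

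In these windows CRB3 has 5 copies of the hexamer, AP1M2 has 3, DSP has 2, RAB25 has 1 and CLDN4 has 0. Searched on both strands, CAGGTG occurred in 9 of the 23 matched epithelial promoters whose genes were called lower (39.1%) and in 3 of the 6 whose genes were not called. It occurred in 16.1% of the 11161 promoters of genes in the expression table. Among all genes called lower the share was 246 of 825 (29.8%), and among all called higher 157 of 957 (16.4%). The palindrome AACCGGTT, bound by grainyhead-like factors, was in 0 of the 23 and in 0.125% of the 11161, which says only that these letters are not in the windows. Copies did not order the size of the fall: CLDN4, with 0 copies, had a log2 fold change of -7.97, CRB3 with 5 had -5.22 and AP1M2 with 3 had -1.46. A match is a description of the sequence, and binding was not measured.

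Adherens and tight junction genes fell in 24 of 27 cases, with a median log2 fold change of -4.27. CDH1, on chromosome 16, encodes E-cadherin, the adhesion molecule of adherens junctions. Its log2 RPKM was 4.90, 4.66 and 4.33 in the parental samples and -3.0, -4.06 and -3.49 in Ov4Cis, a log2 fold change of -8.14 ± 0.32 (adjusted p = 2.25e-09), and the groups did not overlap. EPCAM, an epithelial adhesion molecule, was at log2 RPKM 6.13, 5.86 and 5.96 and then 0.76, 1.52 and 1.24, so it was reduced but still present in every Ov4Cis sample. The claudins differed among themselves. CLDN4 and CLDN7 had log2 fold changes of -7.97 ± 0.28 and -5.36 ± 0.42. CLDN3 and CLDN1 were also called lower but were still at log2 RPKM 2.34 ± 0.25 and 4.04 ± 0.57 in Ov4Cis. MAL2, a protein of apical transport, fell by 6.18 on the log2 scale. RAB25 went from log2 RPKM 2.49 ± 0.52 to -6.09 ± 0.15. CLDN1, CLDN3 and RAB25 were named after their values were seen.

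The membrane protease axis of epithelia fell as well, at both its enzymes and its inhibitors. ST14, which encodes matriptase, was at log2 RPKM 5.54, 5.77 and 5.56 in the parental samples and -1.75, -1.33 and -1.34 in Ov4Cis. PRSS8, which encodes prostasin, a protease that acts with matriptase, had a log2 fold change of -8.14 ± 0.42. Their inhibitor SPINT2 was at log2 RPKM 6.93, 6.73 and 6.89 and then -0.60, 0.52 and 0.35. SPINT2 was among the most abundant transcripts of the list in the parental line, and its RPKM was 108 times higher there.

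Keratin and desmosome genes were called lower in 15 of 20 cases, with a median log2 fold change of -2.86. KRT7, the keratin commonly used to identify ovarian carcinoma, was at log2 RPKM 8.30, 8.11 and 8.43 in the parental line and -0.13, -1.06 and -0.52 in Ov4Cis (log2 fold change -8.85 ± 0.26, adjusted p = 1.74e-10). KRT19, another simple epithelial keratin, was at log2 RPKM 5.81, 6.46 and 6.35 and then -1.85, -2.93 and -2.57. In both genes every Ov4Cis sample lay far below every parental sample. The paired keratins of simple epithelia were also called lower but fell by less. KRT18 was at log2 RPKM 6.32 ± 0.23 in Ov4Cis after 7.53 ± 0.20 in the parental line (log2 fold change -1.20), and KRT8 at 4.50 ± 0.14 after 7.09 ± 0.26. KRT8 was named after its value was seen. KRT17, a keratin of stressed epithelia, had a log2 fold change of -9.10. Among the plakins of this list, relatives of the proteins that link keratin filaments to desmosomes, EPPK1 had a log2 fold change of -9.69, PPL -5.26 and DSP -2.77. DSP remained at log2 RPKM 4.91 ± 0.32. PKP3, a plakophilin of desmosomes, fell by 6.46, whereas PKP2 was at 0.60 and DSG2 at 0.15 on the log2 scale and neither was called. Keratin genes have close paralogs and processed pseudogenes, and reads shared with them may have been split. With genes of mean log2 RPKM under 1 removed, 8 members were called lower.

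**Figure D2:**
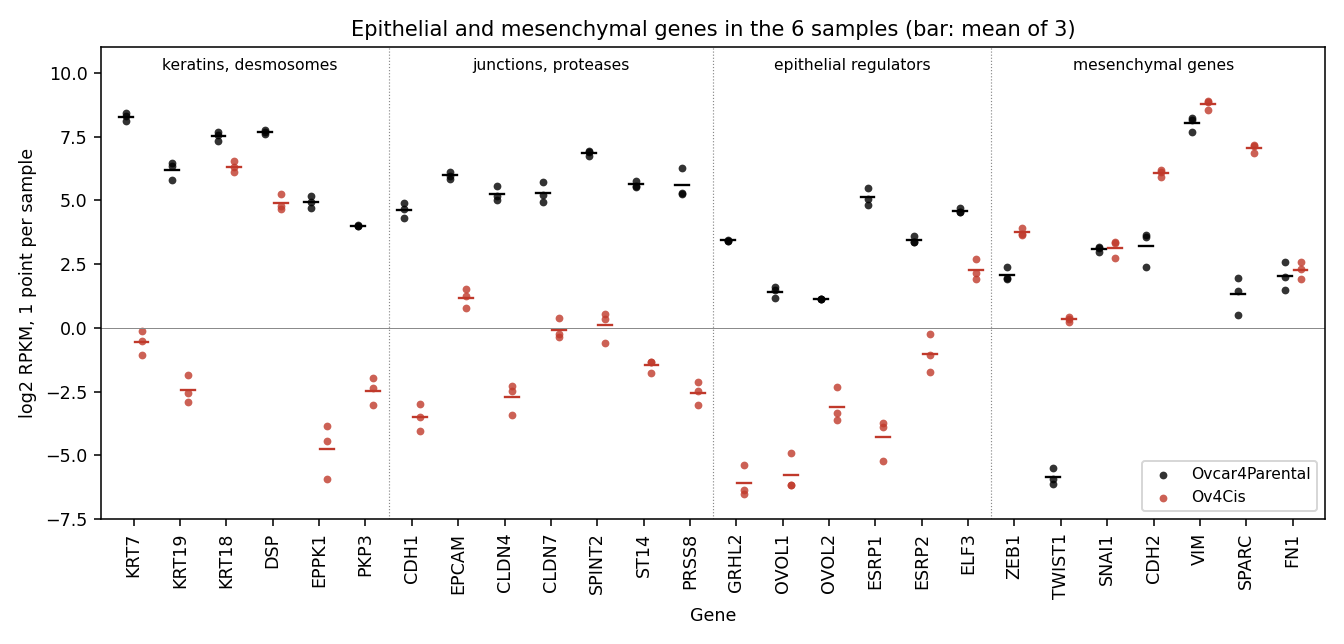
Log2 RPKM of 26 genes, with 1 point per sample and a bar at the mean of 3, parental in black and Ov4Cis in red. For the first 19 genes every Ov4Cis point is below every parental point, while ZEB1, TWIST1, CDH2 and SPARC are higher in Ov4Cis, and SNAI1 and FN1 overlap. For EPPK1, PKP3, SPINT2, ST14, PRSS8 and OVOL2 separate groups were a condition of naming, not a result. Epithelial members that were not called are not drawn.

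The mesenchymal side changed in part. Of 8 measured transcription factors, 2 rose, 1 fell and 5 did not pass, so 37.5% were called beside 15.9% over all genes. ZEB1, a zinc finger repressor of CDH1, was at log2 RPKM 1.95, 2.37 and 1.90 in the parental samples and 3.92, 3.66 and 3.69 in Ov4Cis (log2 fold change 1.68 ± 0.17, adjusted p = 7.56e-06). TWIST1, a basic helix-loop-helix factor, went from -6.11, -5.51 and -5.94 to 0.22, 0.42 and 0.34 in log2 RPKM, from the bottom of the scale to a low level. SNAI1 did not differ beyond the replicate spread, with log2 RPKM 3.08 ± 0.10 and 3.14 ± 0.35 and an adjusted p of 0.86. SOX9, a factor of progenitor cells, fell by 2.10 on the log2 scale. SNAI2, ZEB2, PRRX1, TCF4, FOXC2 and GSC were not analysed here.

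Mesenchymal effector genes moved both ways, 6 higher and 5 lower of 20, with a median log2 fold change of 0.06. Together 55% were called, beside 15.9% over all genes. CDH2, which encodes N-cadherin, was at log2 RPKM 2.40, 3.66 and 3.56 in the parental line and 5.91, 6.17 and 6.12 in Ov4Cis, with all Ov4Cis samples higher (log2 fold change 2.86 ± 0.30, adjusted p = 1.04e-05). CDH13, a cadherin anchored by a lipid tail, rose by 3.11. MMP2, a gelatinase, and ENG, a TGF-beta co-receptor, had log2 fold changes of 2.47 and 2.72 and were named after their values were seen. VIM, the intermediate filament of mesenchymal cells, was already at log2 RPKM 8.02 ± 0.30 in the parental line and 8.76 ± 0.18 in Ov4Cis (adjusted p = 0.0145), and was not called. AXL, a receptor kinase often raised in resistant cells, was at log2 RPKM 4.31 ± 0.32 and 4.45 ± 0.35, within the replicate spread. The 5 lower calls were TAGLN, CNN1, FSTL1, S100A4 and ACTA2. TAGLN, which encodes the actin-binding protein transgelin, was at log2 RPKM 7.79, 8.24 and 8.42 in the parental samples and 0.70, 1.84 and 1.71 in Ov4Cis. ACTA2 and CNN1, smooth muscle actin and calponin, had log2 fold changes of -2.67 and -4.80 and were named after their values were seen. The log2 fold change was -3.64 for FSTL1, a secreted glycoprotein, and -2.78 for S100A4, a calcium-binding protein of motile cells.

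Markers of other cell types were examined beside these changes. Of 12 fibroblast and mesothelial markers 6 were in the table, with a summed RPKM between 134.8 and 154.7 in the parental line and between 139.3 and 183.8 in Ov4Cis. In this set FBLN1, a fibulin of the matrix, rose by 1.26 on the log2 scale, 5 did not pass (2 of them were called lower without parental replicate 1 and 1 without Ov4Cis replicate 2), and the fibroblast marker LUM was at log2 RPKM -4.46 and -6.0. Of 11 endothelial markers 6 were in the table, and their summed RPKM was between 12.5 and 15.02 in the parental line and between 88.19 and 99.37 in Ov4Cis. TIE1 and CDH5 rose, while VWF stayed at log2 RPKM -0.19 and -0.55, and ESAM at -2.28 and -2.52. By limma 3 of the 6 were higher and 0 lower at an adjusted p under 0.05, which 36.2% of all genes passed. At an unadjusted p under 0.05, 4 were higher and 0 lower, and the median log2 fold change of the 6 was 0.90. Of the 3 measured leukocyte markers, CD14 was at log2 RPKM -0.98 and -0.27. LCP1, an actin-bundling protein of leukocytes that carcinoma lines also express, fell from log2 RPKM 6.86 ± 0.12 to 1.41 ± 0.17. What part other cell types had in the results was not tested.

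Matrix genes split, with 5 of 30 called higher and 8 lower, together 43.3% beside 15.9% over all genes. SPARC, a matricellular protein that binds collagen, was at log2 RPKM 1.95, 1.46 and 0.51 in the parental samples and 6.85, 7.12 and 7.15 in Ov4Cis, a log2 fold change of 5.73 ± 0.28 (adjusted p = 2.04e-08). FBN2, a fibrillin of elastic microfibrils, had the opposite course, at log2 RPKM 5.49, 5.82 and 6.11 in the parental line and -4.71, -4.29 and -3.40 in Ov4Cis. The log2 fold change was -6.19 for LOXL1, an enzyme that crosslinks elastin, -7.78 and -4.24 for the fibrillar collagen genes COL11A1 and COL1A2, and -2.41 for TIMP3, an inhibitor of metalloproteinases. FN1, which encodes fibronectin, and COL1A1 did not pass, with log2 fold changes of 0.23 ± 0.41 and -0.15 ± 0.17. The counts rest partly on single libraries: without Ov4Cis replicate 3 the higher calls were 3, and without Ov4Cis replicate 1 the lower calls were 5.

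Integrin and laminin genes were called higher in 4 of 23 cases and lower in 6, together 43.5% beside 15.9% over all genes. Chains of the laminin that anchors epithelial cells to the basement membrane fell: LAMA3 was at log2 RPKM 8.08, 7.94 and 7.01 in the parental samples and 4.78, 4.72 and 4.53 in Ov4Cis, and LAMB3 had a log2 fold change of -4.43. The log2 fold change was -2.54 for ITGB4, the integrin chain of hemidesmosomes that binds this laminin, and -3.38 for ITGB6, an epithelial integrin chain. ITGA5, a chain of the fibronectin receptor, was at log2 RPKM 4.22, 3.78 and 3.29 and then 5.94, 5.82 and 5.72 in Ov4Cis. ITGAV, which pairs with several beta chains, was not called (log2 fold change -0.66). ITGA6, the partner of ITGB4, was called higher at 1.06, but at 0.96 without Ov4Cis replicate 1 and at 0.92 without parental replicate 1 it was not.

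The largest rises on the log2(RPKM + 1) scale, which gives less weight to nearly silent genes, were in 12 genes of mixed function. PTPRD, a receptor tyrosine phosphatase on chromosome 9, was at log2 RPKM -0.35, 0.18 and 0.42 in the parental samples and 6.40, 6.25 and 6.46 in Ov4Cis, a log2 fold change of 6.29 ± 0.81 (adjusted p = 6.15e-05) and 78 times in RPKM. TIE1, the orphan receptor of the angiopoietin system, was at log2 RPKM 0.65, 0.39 and -0.50 and then 5.59, 5.54 and 5.43. Each of these genes was thus abundant in Ov4Cis and near log2 RPKM 0 before. GJA5 and GJA4, gap junction proteins of arteries, had log2 fold changes of 7.03 ± 0.71 and 5.16 ± 0.91, and CDH5, the cadherin of endothelial junctions, went from log2 RPKM 2.46 ± 0.14 to 5.13 ± 0.16. Of the 6 measured endothelial markers, TIE1 and CDH5 were called and 4 were not, although 4 of the 6 were higher at an unadjusted p under 0.05 in limma. PRKCB, a protein kinase C, rose by 8.60, PHACTR1, a regulator of actin and phosphatase, by 5.47, and SST, which encodes somatostatin, by 7.87 on the log2 scale. SST varied among the parental samples, at log2 RPKM 0.73, -5.31 and -5.11. PTX3, a secreted pentraxin of innate immunity, went from log2 RPKM 3.22 ± 0.17 to 7.25 ± 0.32. The noncoding genes HAGLROS and LINC02167 had log2 fold changes of 8.73 and 5.48, and HOXD1 and SPARC completed the 12.

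Of the 12 largest falls by the same measure, 8 belong to the lists above (KRT7, KRT19, SPINT2, PRSS8, ST14, ESRP1, FBN2 and TAGLN). The other 4 were MYL9, S100A14, SFN and TNNC1. MYL9, a myosin light chain, had a log2 fold change of -7.42 ± 0.85 (adjusted p = 2.40e-05). S100A14, a calcium-binding protein of epithelia, fell from log2 RPKM 6.14 ± 0.72 to -2.46 ± 0.53. SFN, which encodes stratifin, a checkpoint protein of epithelial cells, was at log2 RPKM 5.87, 5.64 and 5.70 and then -1.73, -1.75 and -1.62, and it had a small replicate spread in both lines. TNNC1, the troponin C of slow muscle, remained detectable at log2 RPKM 1.51 ± 0.84 after 7.20 ± 0.17.

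HOX genes, which encode the homeodomain factors of axial identity, were called higher in 12 of 27 cases and lower in 5. Together 63% were called, beside 15.9% over all genes. HOXD1 was at log2 RPKM -6.52, -6.52 and -6.37 in the parental samples and 3.45, 4.26 and 3.38 in Ov4Cis, from the bottom of the scale to a clear level (log2 fold change 10.17 ± 0.44, adjusted p = 5.86e-09). HOXD8, in the same cluster, went from log2 RPKM -6.58 ± 0.12 to 1.25 ± 0.56. In the HOXA cluster, HOXA11 went from log2 RPKM -0.58 ± 0.45 to 4.01 ± 0.081, HOXA10 from 0.079 ± 0.14 to 2.83 ± 0.063 and HOXA3 from 1.52 ± 0.29 to 3.18 ± 0.17, while HOXA9 was not called (log2 fold change 0.56). HOXB9 fell by 2.70, and HOXB7 did not pass at 0.24 on the log2 scale. Many members were low, and on the log2(RPKM + 1) scale 7 were called higher and 1 lower. HOX clusters hold antisense transcripts, and the sources do not state whether counting used strand, so reads from HOXD1 and from overlapping noncoding genes such as HAGLROS may not be separated.

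Markers of the serous lineage fell in 12 of 20 cases and rose in 3, with a median log2 fold change of -1.55. Together 75% were called, beside 15.9% over all genes. PAX8 was not called (log2 fold change -0.039 ± 0.12, adjusted p = 0.842). MUC16, which encodes the CA125 antigen used to follow ovarian cancer, was at log2 RPKM 5.60, 4.12 and 4.07 in the parental samples and -2.44, -1.17 and -1.57 in Ov4Cis, and MSLN, which encodes its binding partner mesothelin, had a log2 fold change of -4.18 ± 0.24. WFDC2, the serum marker HE4, stayed at a moderate level, log2 RPKM 3.31 ± 0.40 after 4.95 ± 0.46. FOLR1, the folate receptor, and the kallikreins KLK6 and KLK10 had log2 fold changes of -3.24, -5.98 and -3.76. CP, which encodes the copper carrier ceruloplasmin, rose from log2 RPKM 4.82 ± 0.10 to 7.23 ± 0.063. WT1 rose by 3.56 on the log2 scale but only to log2 RPKM -1.85, -1.71 and -0.98, and on the log2(RPKM + 1) scale its fold change of 0.39 was not called.

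Growth factor receptors and their ligands were lower in 13 of 36 cases and higher in 5, together 50% beside 15.9% over all genes. ERBB3, the heregulin receptor, was at log2 RPKM 4.81, 3.52 and 3.47 in the parental line and -0.32, -1.27 and -1.98 in Ov4Cis, so that the groups were wide apart. ERBB2 and MET, other growth factor receptors, were not called, with log2 fold changes of -0.26 ± 0.19 and 0.11 ± 0.20. MACC1, a regulator of MET, nonetheless fell from log2 RPKM 2.15 ± 0.20 to -6.48 ± 0.70. EGFR was at -0.98, just short of the limit, and was called without parental replicate 1 (-1.08), without parental replicate 2 (-1.01), without Ov4Cis replicate 2 (-1.09) or without Ov4Cis replicate 3 (-1.17). Of the binding proteins of insulin-like growth factors in this list, IGFBP5, IGFBP3 and IGFBP2 had log2 fold changes of -7.44, -3.78 and -3.09, and IGFBP7 was not called (0.74). Outside the list IGFBP1 rose by 3.01 and IGFBP4 and IGFBP6 were not called (-0.082 and 0.017). IGFBP1, IGFBP4, IGFBP6 and IGFBP7 were named after their values were seen.

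Carriers of platinum and copper were called in both directions. Of 23 members 3 were called higher and 2 lower, a share of 21.7% beside 15.9% over all genes, and on the log2(RPKM + 1) scale 0 passed in either direction. At an adjusted p under 0.05 with no limit on the fold, 9 were higher and 5 lower, where 36.2% of all genes passed. The copper importer SLC31A1, which takes up cisplatin, was at log2 RPKM 3.77, 3.62 and 3.62 in the parental samples and 3.39, 3.35 and 3.27 in Ov4Cis (log2 fold change -0.33 ± 0.17, adjusted p = 0.152). The copper exporting ATPase ATP7A was at 1.61 ± 0.12 and 2.13 ± 0.10 in log2 RPKM, and neither gene was called. The second exporter, ATP7B, was lower, with log2 RPKM 0.97, 0.31 and 0.83 and then -0.15, -0.31 and -0.68. Its log2 fold change of -1.08 dropped under the limit without Ov4Cis replicate 3 (-0.93) and without parental replicate 1 (-0.95). LRRC8D, a subunit of the volume-regulated anion channel through which cisplatin can enter, had a log2 fold change of -1.06. It lost its call without parental replicate 1 (-0.96) and without Ov4Cis replicates 2 (-1.0) or 3 (-0.99). ABCC2, a pump of glutathione conjugates, rose, from log2 RPKM -2.01, -2.74 and -3.28 to 0.26, -0.018 and 0.54, still a low level in Ov4Cis. The other higher calls, named after their values were seen, were ABCG2 and SLC47A1, with mean log2 RPKM of -1.28 and 0.86 in Ov4Cis.

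Thiol and detoxification genes were called higher in 6 of 40 cases and lower in 1, together 17.5% beside 15.9% over all genes, with a median log2 fold change of 0.31. AKR1C3, an aldo-keto reductase, was at log2 RPKM -0.28, -1.40 and -0.45 in the parental line and 2.63, 2.89 and 2.90 in Ov4Cis (log2 fold change 3.52 ± 0.29, adjusted p = 1.27e-06). PIR, an iron-binding nuclear protein, went from log2 RPKM 3.02 ± 0.17 to 4.90 ± 0.11, and MGST3, a membrane glutathione transferase, from 4.01 ± 0.10 to 5.37 ± 0.14. GGT1, which breaks down extracellular glutathione, had a log2 fold change of 2.33 ± 0.30. The genes that make glutathione were not called: GCLC and GCLM, the subunits of its rate-limiting enzyme, had log2 fold changes of 0.10 ± 0.14 and -0.091 ± 0.14. GSTP1, the main glutathione transferase of carcinoma cells, was at log2 RPKM 8.85 ± 0.12 and 8.29 ± 0.22 (adjusted p = 0.0129) and was not called. MT2A, a metallothionein, was at log2 RPKM 6.68, 6.37 and 5.79 and then 6.28, 6.36 and 6.40, with overlapping samples. SLC7A11, which imports cystine, had a log2 fold change of 0.89 and was called only without parental replicate 1 (1.11), parental replicate 2 (1.0) or Ov4Cis replicate 2 (1.04). Without Ov4Cis replicate 1 the lower count of the list was 2. AKR1C, GGT and metallothionein genes have near-identical relatives, so their values are less certain.

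Aldehyde dehydrogenases, used as markers of stem-like cells, were called higher in 3 of 16 cases and lower in 2. Together 31.2% were called, beside 15.9% over all genes. ALDH6A1, a mitochondrial enzyme of valine breakdown, went from log2 RPKM 3.99 ± 0.21 to 5.90 ± 0.043, and ALDH2, which clears acetaldehyde, from 3.77 ± 0.27 to 5.02 ± 0.067. ALDH1B1 fell by 1.16 on the log2 scale. The stem cell marker ALDH1A1 was at log2 RPKM -0.31, -1.86 and 0.44 in the parental line and 0.70, 0.67 and 0.39 in Ov4Cis, and its log2 fold change of 1.16 was called only without parental replicate 3 (1.67) or with a variance trend. The lower count was 1 rather than 2 without Ov4Cis replicate 2 or 3, or without parental replicate 1 or 2.

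DNA repair genes were not called. In the limma fit 0 of 85 measured members of 3 lists passed (nucleotide excision repair, Fanconi and homologous recombination, mismatch repair and damage tolerance), where 15.9% of all genes did, and the median log2 fold change was -0.01. Of the 85, 82 had a higher line mean of at least log2 RPKM 1, and 11.5% of all such genes were called. At an adjusted p under 0.05 with no limit on the fold, 15 were higher and 10 lower, where 36.2% of all genes passed. At an unadjusted p under 0.05, 22 of the 85 were higher and 13 lower, beside 4114 and 3375 of all 16604 genes. The log2 fold changes of the 85 ranged from -1.0 (ERCC5, an excision nuclease, named after its value was seen) to 0.84. BRCA1, which directs recombination, was at log2 RPKM 2.32, 2.20 and 2.45 in the parental samples and 2.82, 3.24 and 3.10 in Ov4Cis (log2 fold change 0.74 ± 0.14, adjusted p = 0.00103). BRCA2, another factor of recombination, went the other way, at log2 RPKM 2.13, 2.43 and 2.46 and then 1.30, 1.56 and 1.42 (log2 fold change -0.92 ± 0.16, adjusted p = 0.000618). Neither pair of groups overlapped, and both changes stayed under the limit, although BRCA2 passed it without parental replicate 1 (-1.02). POLH, the polymerase that bypasses platinum crosslinks, had a log2 fold change of -0.91 ± 0.15. The excision factors ERCC1, ERCC4 and XPC had log2 fold changes of 0.28, -0.03 and -0.23, and the mismatch factor MSH6 had 0.087. The excision repair list had 1 lower call without Ov4Cis replicate 1 or without parental replicate 2.

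**Figure D3:**
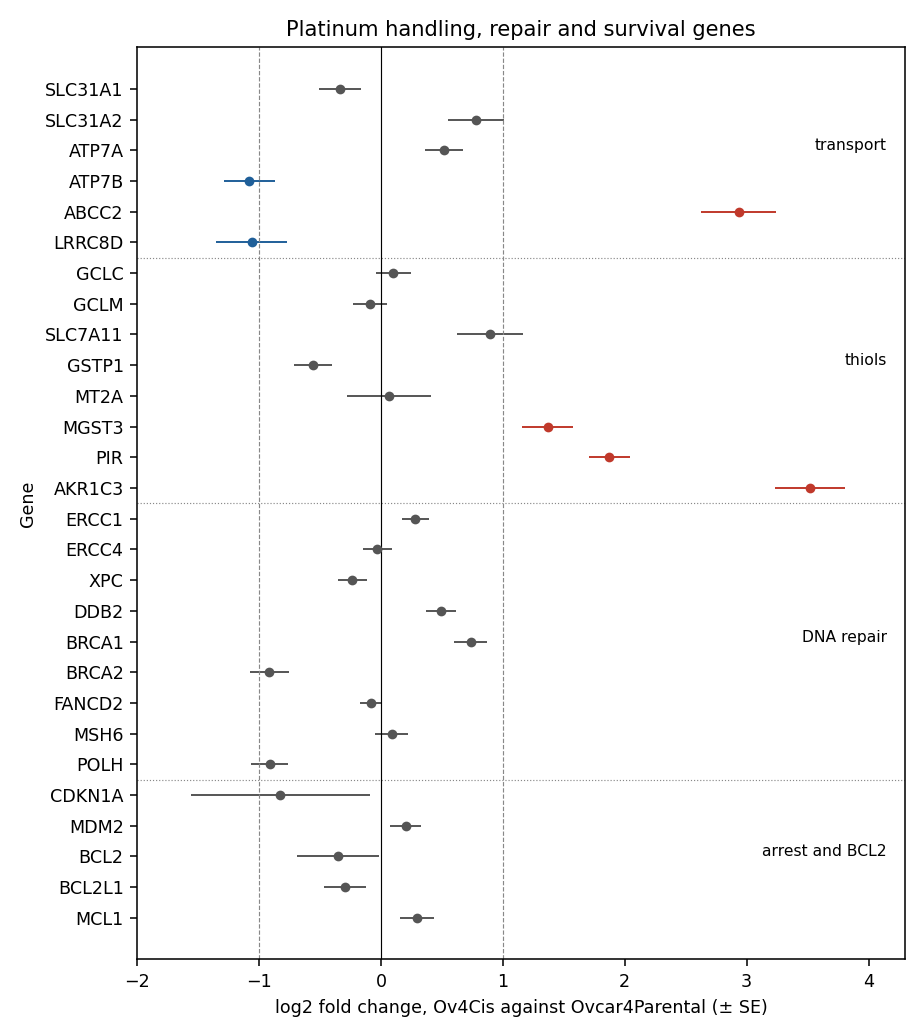
Log2 fold change of Ov4Cis against the parental line for 28 genes, with bars of 1 SE and dashed lines at the limits of a call. Red and blue points are called genes: ABCC2, MGST3, PIR and AKR1C3 higher, ATP7B and LRRC8D lower, and none of the repair, arrest or BCL2 family genes shown.

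Survival and cell cycle lists are given beside the 15.9% of all genes that were called. Of 26 measured members of the arrest and damage response list 1 was called higher and 2 lower (11.5%), and CDKN1A, an inhibitor of cyclin-dependent kinases, and MDM2, a ubiquitin ligase, had log2 fold changes of -0.83 ± 0.74 and 0.20 ± 0.13. Without parental replicate 1 the higher count of this list was 2, and without parental replicate 2, Ov4Cis replicate 2 or Ov4Cis replicate 3 the lower count was 1. PHLDA3, which restrains AKT, fell by 1.71. The apoptosis list had 0 higher (5 at an unadjusted p under 0.05 in limma) and 2 lower of 22 (9.09%), with log2 fold changes of -0.35 ± 0.34 for BCL2, -0.30 ± 0.17 for BCL2L1 and 0.30 ± 0.14 for MCL1. Those 2 were BMF and HRK, activators of cell death of the BH3 class, named after their values were seen, and both were low in the parental line, at log2 RPKM -0.35 and -2.0, so that 0 were called on the log2(RPKM + 1) scale. Of 30 proliferation genes 0 were called by limma. At an adjusted p under 0.05, which 36.2% of all genes passed, 2 were higher and 6 lower. At an unadjusted p under 0.05, 2 were higher and 11 lower. MKI67 had a log2 fold change of -0.10 ± 0.16 and TOP2A of 0.69 ± 0.10. In the G1 list 1 of 22 was higher and 4 were lower (22.7%): RB1, the retinoblastoma protein, was at log2 RPKM 4.70, 4.57 and 4.68 and then 3.33, 3.57 and 3.61, and CDKN2B, an inhibitor of CDK4 and CDK6, fell by 1.80. CCNE1, which encodes cyclin E, had a log2 fold change of -1.01 that was -0.70 without Ov4Cis replicate 1 and -0.96 without parental replicate 3, and without either of these libraries the higher count of the list was 0.

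Interferon-response genes were called higher in 9 of 37 cases and lower in 3, with a median log2 fold change of 0.57. Together 32.4% were called, beside 15.9% over all genes. OAS1, which makes the signal that activates RNase L, was at log2 RPKM -2.28, -1.75 and -1.35 in the parental samples and 1.60, 1.95 and 1.66 in Ov4Cis (log2 fold change 3.53 ± 0.66, adjusted p = 0.00106). IFI44L and SAMD9L, antiviral effectors, had log2 fold changes of 3.10 ± 0.71 and 3.07 ± 0.71. Other members did not pass, among them ISG15 at 0.46 ± 0.32 and MX1 at 0.40 ± 0.73. IFITM1, a membrane protein that blocks viral entry, fell by 2.34. Genes of antigen presentation were called in 0 of 17 cases by limma, where 15.9% of all genes were. At an adjusted p under 0.05, which 36.2% of all genes passed, 0 were higher and 3 lower. At an unadjusted p under 0.05, 0 were higher and 6 lower. Without replicate 1 of Ov4Carbo, which shares the estimate of the spread, 1 was called lower. B2M, the light chain of class I molecules, had a log2 fold change of 0.27 ± 0.19.

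Cytokine and complement genes moved in both directions, 7 higher and 8 lower of 31, together 48.4% beside 15.9% over all genes. CXCL1 and CXCL5, neutrophil chemokines, went from log2 RPKM 5.17 ± 0.59 to 6.80 ± 0.44 and from 3.30 ± 0.22 to 5.69 ± 0.54. CXCL16, a transmembrane chemokine, was at log2 RPKM 3.76, 4.0 and 3.60 in the parental line and -1.41, -0.28 and -0.80 in Ov4Cis, and IL1R1, the interleukin-1 receptor, fell by 2.28. HP, which encodes haptoglobin and has a close paralog in HPR, went from log2 RPKM -5.08 ± 1.39 to 2.58 ± 0.50. CXCL8 and CCL2 were not called, with log2 fold changes of -0.44 ± 0.24 and 0.69 ± 0.33.

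Signalling pathways showed changes at single components. Calls made up 22.2% of the TGF-beta and BMP list, 33.3% each of the Hedgehog and Notch lists and 32.4% of the Wnt list. Over all genes 8.46% were called higher and 7.41% lower, together 15.9%. In the TGF-beta and BMP list, 3 of 36 were higher and 5 lower. The ligands diverged: TGFB1 was at log2 RPKM 4.03, 4.13 and 3.99 in the parental samples and 6.0, 5.79 and 5.90 in Ov4Cis, whereas TGFB2 and INHBB, an activin subunit, had log2 fold changes of -1.81 and -4.16. ID4, an inhibitor of differentiation factors and a BMP target, went from log2 RPKM 6.55 ± 0.56 to 4.48 ± 0.27. Without parental replicate 1 the lower count was 9 rather than 5. In the Hedgehog list 3 of 12 were higher and 1 lower: GLI3, the repressor of the pathway, was at log2 RPKM -1.04, -0.75 and -1.55 and then 3.46, 3.59 and 3.58, GAS1, a co-receptor, rose by 1.94, and PTCH1, a receptor and target, fell by 1.38. On the log2(RPKM + 1) scale PTCH1 was at -0.96 and not called, and GLI2 did not pass (log2 fold change 0.18 ± 0.25). Of 37 Wnt genes 5 were higher and 7 lower. The log2 fold change was -2.23 for SFRP1, a secreted inhibitor, -1.46, -2.02 and -1.29 for the ligands WNT7A, WNT7B and WNT5A, and 3.11 for the receptor ROR2. The Notch list had 1 higher and 5 lower of 18, among them the target genes HES4 and HES6 with log2 fold changes of -1.46 and -1.58, while NOTCH1 was not called (0.20 ± 0.23). Without parental replicate 3 the higher count of the Notch list was 2.

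Metabolic lists were called in smaller shares than the 15.9% of all genes. Of 25 hypoxia and glycolysis genes 1 was higher and 1 lower (8%), and of 28 sterol and fatty acid genes also 1 each (7.14%). BNIP3, a mitophagy receptor induced by low oxygen, rose by 1.39. SLC2A1, the glucose transporter, and FASN and SCD, enzymes of fatty acid synthesis, had log2 fold changes of -0.30, -0.12 and -0.54, and none was called. VEGFA, an angiogenic factor and the single lower call of the hypoxia list (-1.09), was lost without Ov4Cis replicate 2, Ov4Cis replicate 3 or parental replicate 1. In the sterol list both counts were 0 without Ov4Cis replicate 2 or parental replicate 1, and the lower count was also 0 without Ov4Cis replicate 3. The lower count of the hypoxia list ran from 0 to 3 and the higher count reached 2 without Ov4Cis replicate 2, so these counts rest on single libraries. Over the 64 counts of all lists, higher and lower, 19 moved by more than 1.5 times on the log2(RPKM + 1) scale and 26 when genes with a mean log2 RPKM under 1 were left out.

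**Figure D4:**
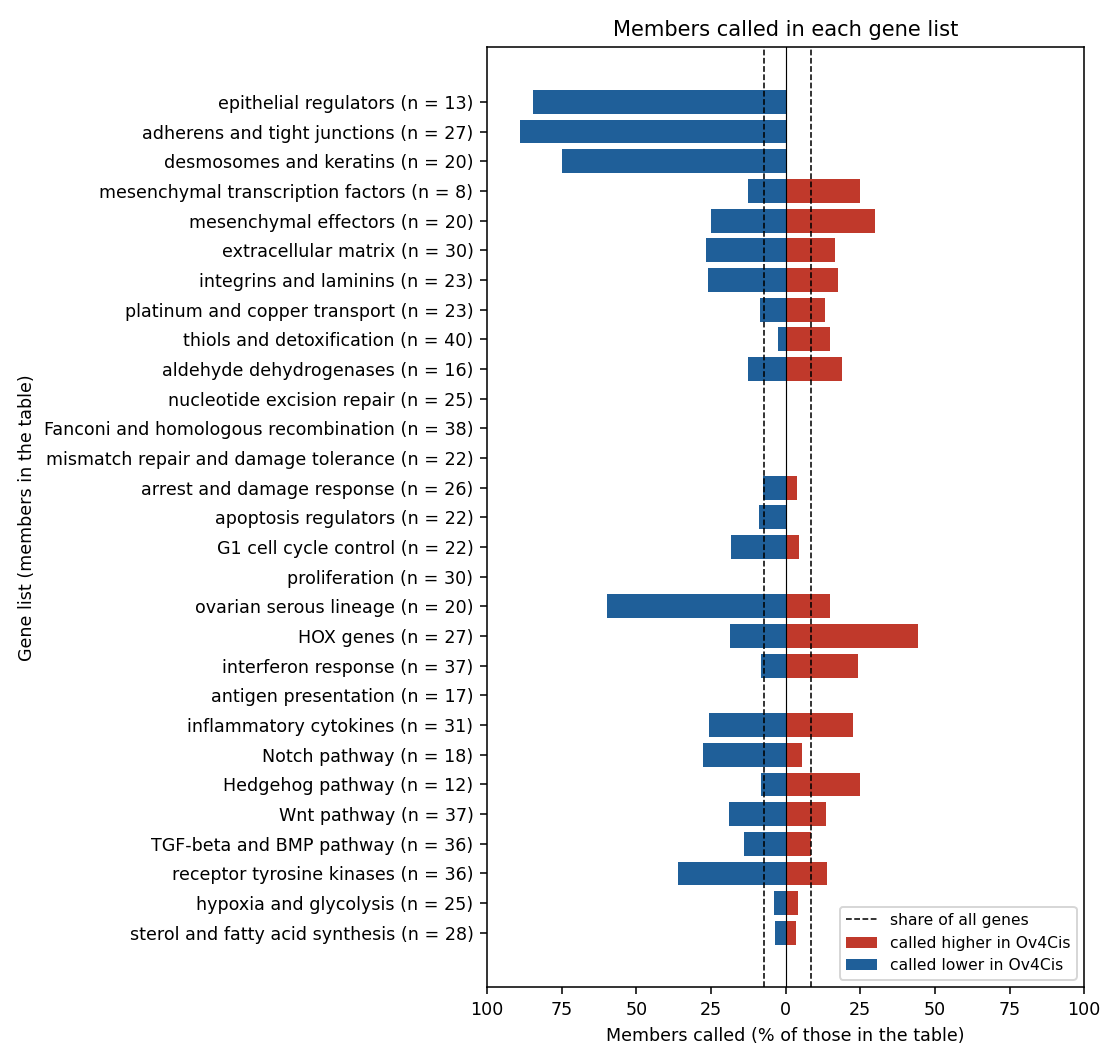
Percent of measured members called higher (red, to the right) and lower (blue, to the left) in each of 29 lists, with dashed lines at the shares of all genes, 8.46% and 7.41%. The 3 epithelial lists and the serous lineage list extend far to the left, the HOX list furthest to the right, and the repair, proliferation and antigen presentation lists have no bar.

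Genes on chromosome 13 were lower as a group. Over the 203 genes there with a mean log2 RPKM of at least 1, the median log2 fold change was -0.80, with quartiles of -1.12 and -0.36, beside a median of 0.022 and quartiles of -0.24 and 0.28 over all 12025 such genes. The median was -0.82, -0.81 and -0.80 in the 3 Ov4Cis replicates taken singly. Of all 285 measured genes of the chromosome 94 were called lower and 8 higher, together 35.8% of them against 15.9% of all genes. These 94 are 7.64% of all lower calls. Among listed genes on this chromosome, 11 of 13 had a negative log2 fold change and 8 were called lower: RB1, KLF5, LCP1, ATP7B, SMAD9, EPSTI1, EFNB2 and GAS6. BRCA2 and ERCC5 also lie there, and the collagen genes COL4A1 and COL4A2, with log2 fold changes of 0.36 and 0.18, were the exceptions. What part the position of these genes had in their values was not tested.

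Runs of neighbouring genes were seen on other chromosomes as well. Genes with a mean log2 RPKM of at least 1 were taken in GENCODE v29 order in 587 blocks of 20, and 32 blocks had a median log2 fold change past 0.5, 18 lower and 14 higher. All 10 blocks of chromosome 13 were among them, with 12 of 33 on chromosome 17, 7 of 31 on chromosome 6, 2 of 14 on chromosome 22 and 1 of 38 on chromosome 2. On chromosome 17 the higher blocks lay in the later part, from C17orf75 onward, a stretch of 429 genes with a median of 0.53, and the chromosome's median was 0.35. BRCA1 is also on chromosome 17, as is KRT19, which fell. HOXB genes lie there too and differed in both directions, with log2 fold changes of -2.70 for HOXB9 and 0.24 for HOXB7. On chromosome 6 the lower blocks lay between RNF144B and MMUT, a stretch of 240 genes with a median of -0.47 that includes the HLA genes, and POLH is in the last of them. These blocks are a description of 1 line against its parent.

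**Figure D5:**
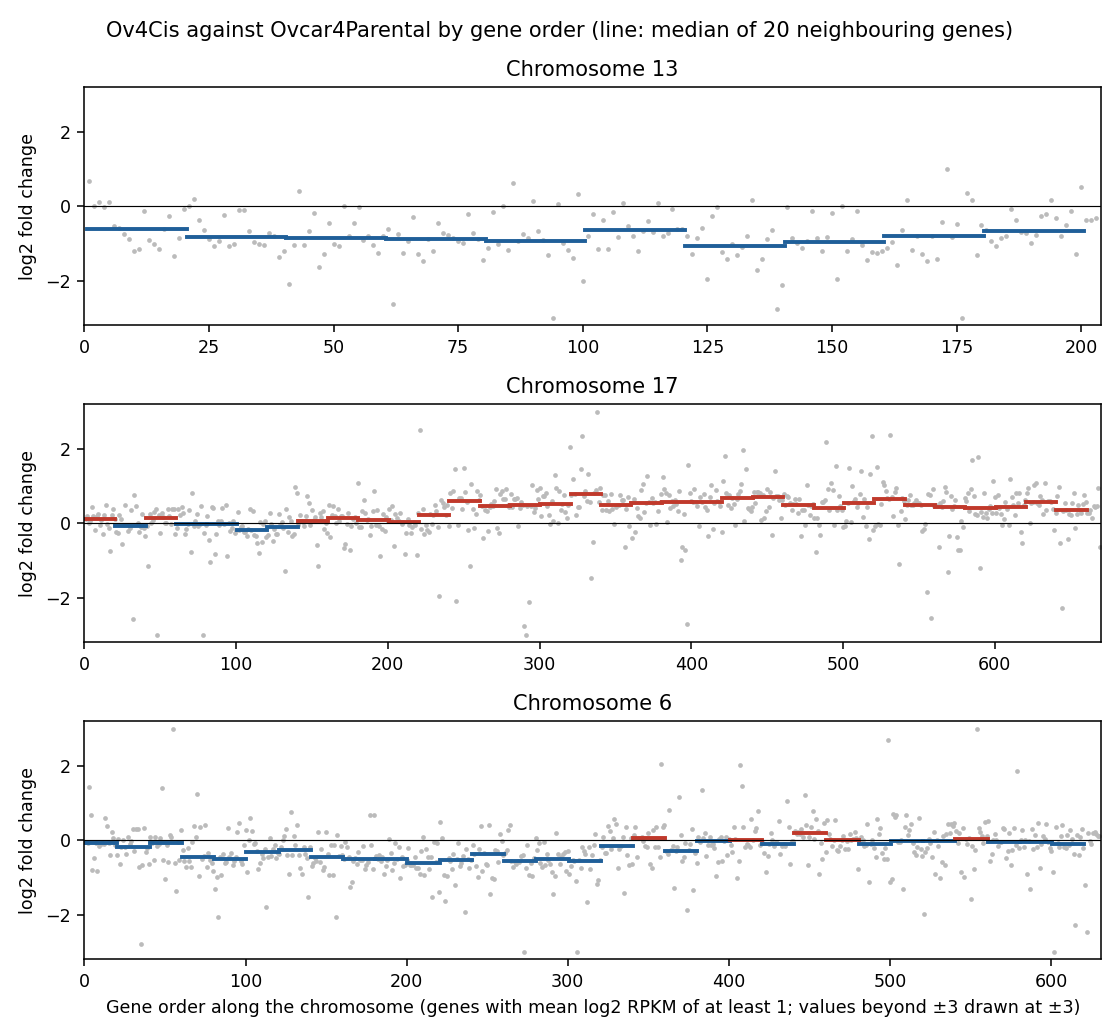
Log2 fold change of Ov4Cis against the parental line for genes of chromosomes 13, 17 and 6 in gene order (grey points), with the median of each block of 20 genes as a line. All lines of chromosome 13 lie below 0, those of the later part of chromosome 17 lie above 0, and a stretch in the earlier part of chromosome 6 lies below 0.

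Ov4Cis also differed from the carboplatin-selected lines. Against the mean of the 3 lines, 1896 genes were called (11.4%), 1054 higher (6.35%) and 842 lower (5.07%) in Ov4Cis. The titles of Ov4Carbo replicate 1 and of all Ov4Carbo4 and Ov4Carbo7 samples carry a separate series of numbers. All remaining samples, Ov4Cis and parental included, share the other series. What these numbers stand for is not stated, and for Ov4Carbo4 and Ov4Carbo7 they cannot be told apart from the line. Of the 60 epithelial members 40 were called lower in Ov4Cis than in those lines and 1 higher. CDH1 was at log2 RPKM 2.88 in Ov4Carbo, 3.62 in Ov4Carbo4 and 1.80 in Ov4Carbo7 beside -3.52 in Ov4Cis, a difference of -6.28 ± 0.26 (adjusted p = 4.12e-09). GRHL2 was at -2.64 in Ov4Carbo, -0.47 in Ov4Carbo4 and -6.52 in Ov4Carbo7 on that scale, and its difference was -2.88 ± 0.59. SPARC, by contrast, was high in each derived line, at log2 RPKM 5.80 in Ov4Carbo, 6.92 in Ov4Carbo4 and 5.04 in Ov4Carbo7, so Ov4Cis was above their mean by 1.12 ± 0.23 only. ZEB1 was at log2 RPKM 2.35 in Ov4Carbo, 2.53 in Ov4Carbo4 and 3.42 in Ov4Carbo7, and the difference from Ov4Cis was 0.98 ± 0.14 (adjusted p = 0.000144). In the interferon list 6 members were called lower in Ov4Cis than in the carboplatin lines and 0 higher. OAS1 was not among these 6. Its mean in Ov4Cis was above the mean of the carboplatin lines but below the means of Ov4Carbo and Ov4Carbo7. It was at log2 RPKM 1.98 in Ov4Carbo, -0.28 in Ov4Carbo4 and 1.85 in Ov4Carbo7. The median log2 difference from the carboplatin lines was -0.64 on chromosome 13 and -0.55 over the stretch on chromosome 6. Over the stretch on chromosome 17 it was -0.0026.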

How the data were processed

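The series holds polyA RNA-seq of 15 samples from 5 lines, with 3 biological replicates per line per the labels, and 6 samples enter the main comparison. The authors deposited log2 RPKM corrected by conditional quantile normalization for gene length and GC content, per the name of the table. That name also mentions a threshold, and its rule is not given in the sources used here. Per the submitters' processing notes, the tools were BWA 0.7.15-r1140 and HTSeq, and the builds named are hg19 and GRCh37. Strand in counting, annotation release and read depth are not given in the sources used here. Each sample has nearly the same distribution (medians from 2.768 to 2.770), so differences in total RNA are not visible.

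Limma 3.58.1 in R 4.3.3 (lmFit, eBayes, two-sided) fitted all 16604 genes and 15 samples with 1 coefficient per line, so 5 lines share the estimate of the spread. Adjustment followed Benjamini and Hochberg across all genes, and calls required both an adjusted p under 0.05 and a log2 fold change of 1 or more in size. The p-values set a difference of line means against the spread between replicates within lines, estimated over the 5 lines. The contrasts were Ov4Cis against Ovcar4Parental and against the mean of the 3 carboplatin lines. In the latter, differences among the 3 carboplatin lines do not enter the SE or the p-value. Symbols matched 16448 genes by Ensembl identifier and GENCODE v29 gave chromosomes for 16499. Promoters came from RefSeq (GRCh38.p14). No samples or columns were left out. Values of 14 listed genes are not reported here, and they stay in the fit and in the list counts. The model was tested on simulated data. In total 742 of 863 listed genes, in 33 lists, were in the table; the 13 mitochondrially encoded genes listed were not analysed here.

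Named genes are the 12 largest rises and falls on the log2(RPKM + 1) scale among called genes with separate groups and a higher mean of at least 1, a set of key members per list, up to 4 further members per list, the 5 largest in each direction against the carboplatin lines, and the 5 most abundant unchanged genes (absolute log2 fold change under 0.2). The further members met the same conditions as the 12 largest, and so did the genes against the carboplatin lines in their own contrast. Apart from key members, separate groups were thus a condition of naming these genes and not a result. Lists, members and rule were chosen with earlier results of these data known. Alternatives were a variance trend, robust variances, requantiling, median centring, log2(RPKM + 1), log2(RPKM + 0.1), a mean of at least 1, only the 6 samples, a replicate block, an adjusted p under 0.01 and leaving out each Ov4Cis and parental replicate and Ov4Carbo replicate 1. For the carboplatin contrast, the other 8 carboplatin libraries were also left out in turn, an alternative added after seeing the data. Python 3.11.15, pandas 2.3.3, numpy 2.4.6 and matplotlib 3.10.9 made the tables and figures.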

Additional observations from a re-analysis of the deposited data

Results flagged for a closer look

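For 10 genes the cisplatin-selected line and the carboplatin-selected lines were at different levels, by the test of Ov4Cis against the mean of Ov4Carbo, Ov4Carbo4 and Ov4Carbo7 (limma, adjusted over all genes), which takes the place of comparing their changes from the shared parental samples. They are the 5 largest differences in each direction on the log2(RPKM + 1) scale. Groups of 3 samples were too small for a check of outlying samples.

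PTPRD was higher in Ov4Cis by 6.69 ± 0.66 log2 units (SE; adjusted p = 8.66e-06), with mean log2 RPKM of -1.08 in Ov4Carbo, -1.80 in Ov4Carbo4 and 1.91 in Ov4Carbo7. TIE1 was higher by 5.13 ± 0.25 (adjusted p = 1.68e-08), and the carboplatin lines stayed near the parental level, at log2 RPKM 0.32 in Ov4Carbo, 0.10 in Ov4Carbo4 and 0.77 in Ov4Carbo7. LINC02167, a long noncoding gene, was higher by 7.90 ± 0.38, with log2 RPKM of -5.04 in Ov4Carbo, -5.34 in Ov4Carbo4 and -1.41 in Ov4Carbo7. MAGEA3, a cancer-testis antigen with the near-identical copy MAGEA6, was at log2 RPKM 0.55 ± 0.33 in the parental line and 4.68 ± 0.027 in Ov4Cis, and was higher than the carboplatin mean by 8.50 ± 0.38 log2 units. MT1E, a metallothionein, was at log2 RPKM 4.79 in the parental line and 4.99 in Ov4Cis, and was not called between them, but at 0.43 in Ov4Carbo, -5.05 in Ov4Carbo4 and -2.98 in Ov4Carbo7, a log2 difference of 7.53 ± 0.27.

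In the other direction CALB1, which encodes the calcium buffer calbindin, was at log2 RPKM 1.11 in the parental line, -4.34 in Ov4Cis and 5.20 in Ov4Carbo, 7.81 in Ov4Carbo4 and 6.50 in Ov4Carbo7, a log2 difference of -10.84 ± 0.32 (adjusted p = 3.18e-10). ROBO1, a guidance receptor, was at log2 RPKM 0.19 in the parental line, -1.62 in Ov4Cis and 5.80 in Ov4Carbo, 5.10 in Ov4Carbo4 and 5.64 in Ov4Carbo7, a log2 difference of -7.13 ± 0.24. The mean levels of CALB1 and ROBO1 were thus below the parental mean in Ov4Cis. KRT7 and KRT19 had log2 differences of -6.30 ± 0.21 and -7.32 ± 0.20, and the carboplatin lines had log2 RPKM of 6.08 in Ov4Carbo, 5.64 in Ov4Carbo4 and 5.48 in Ov4Carbo7 for KRT7. SPINT2 had a log2 difference of -5.46 ± 0.19, with log2 RPKM of 5.77 in Ov4Carbo, 6.23 in Ov4Carbo4 and 4.66 in Ov4Carbo7.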

How the results depend on the processing

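Against the parental line, 151 of the 192 named genes kept their direction and their side of the limits under each of 17 alternatives that gave them a value (147 had one when genes of mean log2 RPKM under 1 were removed). The 10 genes named against the carboplatin lines did so too, also with each of the 9 carboplatin libraries left out, of which 8 were added after seeing the data. These 10 were picked for the largest differences among called genes whose groups did not overlap. Their stability therefore says little about the other calls. List counts and values against the parental line were run without each Ov4Cis and parental replicate and without Ov4Carbo replicate 1 only. Leaving out a replicate gave 2489 to 2733 called genes against the parental line (1316 to 1466 higher, 1173 to 1267 lower) and 1716 to 1990 against the carboplatin lines (964 to 1094 higher, 752 to 896 lower). On the log2(RPKM + 1) scale the counts were 1258 (567 higher, 691 lower) and 686 (375 higher, 311 lower). With genes of mean log2 RPKM under 1 removed they were 988 (440 higher, 548 lower) and 617 (282 higher, 335 lower), partly because fewer genes were tested. In that setting higher calls against the carboplatin lines were 45.7% in place of 55.6%, and the epithelial regulators and the desmosome and keratin list had 4 and 8 lower calls. Genes whose log2 fold change was near 0 changed sign with the library left out, and the ranges were SNAI1 -0.058 to 0.26, AXL -0.044 to 0.30, FN1 -0.033 to 0.51, COL1A1 -0.27 to 0.041, MT2A -0.18 to 0.27, ALDH1A3 -0.30 to 0.23, ERCC4 -0.055 to 0.0082, BCL2 -0.68 to 0.0022, MKI67 -0.18 to 0.022, MX1 -0.041 to 0.74, GLI1 -0.25 to 0.27, GLI2 -0.041 to 0.35, MET -0.045 to 0.24, ACTG1 -0.19 to 0.26, RPL8 -0.19 to 0.13 and TUBA1B -0.020 to 0.18. GLI1 was also -0.0001 on the log2(RPKM + 1) scale and -0.68 after quantile normalization again. The cause was not tested.

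The samples were not treated as paired by replicate number. The correlations of same-numbered deviations from the line means were 0.44, 0.032 and 0.15, and those of different numbers ran from -0.38 to 0.36. Deviations from a mean of 3 depend on each other, so these values cannot show whether the numbers pair the samples. With a replicate block 2582 genes were called (1376 higher, 1206 lower), 2574 of them shared with the 2635, and 1867 against the carboplatin lines (1038 higher, 829 lower); the aldehyde dehydrogenase list then had 1 lower call rather than 2. Not every sample correlated best with its own number. Depth is unknown, so what it limits cannot be given, and values near the bottom of the scale are the least certain.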

Other observations

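LincRNA and antisense genes were called in larger shares than protein-coding genes, and mostly higher, a difference that was not tested. Of 475 lincRNA genes 150 were called (31.6%), 118 higher and 32 lower, and of 593 antisense genes 129 were called (21.8%), 108 higher and 21 lower. Protein-coding genes were called in 16.8% of 12964 cases, with 1103 higher and 1081 lower, processed pseudogenes in 3.78% of 1852 and sense intronic genes in 3.85% of 52. Of 37 sense overlapping genes 3 were called higher and 5 lower. Many noncoding genes were near the bottom of the scale in the parental line, where fold changes are least certain. Among those that reached log2 RPKM 1 in either line, the following were chosen after their values were seen. HAGLR, at the HOXD cluster, went from log2 RPKM -6.70 ± 0.41 to 2.56 ± 0.40. SENCR, a noncoding gene known from endothelial and smooth muscle cells, went from 1.67 ± 0.29 to 4.48 ± 0.09, and HOXA11-AS from 0.64 ± 0.33 to 3.08 ± 0.25. UCA1, a noncoding gene of urothelial and other carcinomas, fell from log2 RPKM 2.11 ± 0.29 to -4.35 ± 1.53. EMX2OS, beside the lineage factor EMX2, fell from 5.39 ± 0.23 to 1.55 ± 0.31. Counting by strand is not stated in the sources used here, so antisense genes and their partners may share reads.

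Among the most abundant genes not called were cytoskeletal, ribosomal and chaperone genes. ACTG1, a cytoplasmic actin, was at log2 RPKM 9.74 ± 0.47 in the parental line and 9.75 ± 0.35 in Ov4Cis, and RPL8, a ribosomal protein, at 9.38 ± 0.33 and 9.33 ± 0.083. The tubulin genes TUBA1B and TUBB had log2 fold changes of 0.061 ± 0.16 and -0.13 ± 0.13, and HSPA8, a constitutive chaperone, had 0.20 ± 0.32. These genes have many processed pseudogenes, so their exact levels are less certain.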
